A study of Mus musculus with 16 samples.

Results

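The genes described are 10 that carry fatty acids into fat cells and store them as triglyceride: Cd36, Lpl, Fabp4, Fabp5, Gpam, Gpd1, Lpin1, Dgat1, Cidec and Plin2. They were chosen by name, and a probe set (the group of short array probes that reads 1 transcript) was counted as a member when the platform annotation gave it 1 of these symbols and no other. This gave 14 probe sets of 12422 on the array that are not controls. Cd36, Lpl, Gpd1 and Dgat1 had 2 probe sets each, and the other 6 genes had 1. One of the Cd36 probe sets, 161704_r_at, had signals of 1.41 to 3.34 on the 16 arrays and did not pass the filter on low signal, so that 13 member probe sets were tested among 7453.

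Fat cells take fatty acids from blood lipoproteins and esterify them. Lipoprotein lipase (Lpl) frees fatty acids from circulating triglyceride, the scavenger receptor Cd36 helps them across the cell membrane, and the binding proteins Fabp4 and Fabp5 carry them inside the cell. Glycerol 3-phosphate, which the dehydrogenase Gpd1 makes from a glycolytic intermediate, is acylated by Gpam in the opening step of triglyceride synthesis. The phosphatase Lpin1 turns phosphatidate into diacylglycerol, and Dgat1 adds the last fatty acid. The product is kept in lipid droplets, which Plin2 coats and Cidec enlarges into the single large droplet of white fat cells. DHT is the potent androgen made from testosterone, and it acts through the androgen receptor, a transcription factor.

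The mice had all been gonadectomised (GDX), males and females alike, and their retroperitoneal fat, a visceral depot, was profiled on 16 single-colour Affymetrix arrays, 8 of each sex. Each sex had 6 arrays of mice given 0.1 mg of DHT by subcutaneous injection, 1 array for each interval to necropsy (1, 3 or 6 h, called early here, or 12, 18 or 24 h, called late), and 2 arrays of mice injected with vehicle. The labels place the vehicle arrays at 24 h, so DHT at 1 to 18 h against vehicle also compares different intervals after the injection. Strain and age are not given in the labels used here. By the labels' protocols the depots of a group's mice were collected together, so an array may pool animals. Whether the vehicle arrays within 1 sex hold different mice is not said. The part of the spread that rests on them may therefore be technical. The rest comes from arrays of different times and sexes, and the contrast on the DHT arrays alone uses no vehicle array. A DHT time thus has 1 array in each sex, and the spread was estimated over all arrays together. The question the design poses is how fat responds over a day to an androgen, in males and in females.

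The second male vehicle array stood apart. All 18 skeletal muscle markers were highest on it among the 16 arrays, and the median marker was 9.78-fold above its mean on the remaining male arrays. Of 13 adipocyte markers 12 were lowest on it, with a median ratio of 0.0751, and all 11 macrophage markers were lowest too. Its log2 signals correlated with those of the other arrays at 0.617 to 0.712, against 0.874 to 0.977 among the other 15. It is called the muscle-rich array, and each result that uses vehicle arrays is given with it (16 arrays) and without it (15 arrays). On the other 15 arrays the summed signal of the adipocyte markers was between 132326 and 222108, against 35399 on the muscle-rich array, so the defining markers of the labelled tissue were high on those 15. In bulk tissue such as this, fewer cells of a type and less RNA per cell cannot be told apart.

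On the muscle-rich array the members were spread over a wide range. Cidec had a signal of 100 on the muscle-rich array, against 8712 ± 1065 (SD, n = 7) on the other male arrays, and Fabp5 had 66.7 against 1441 ± 231. Both signals on the muscle-rich array lay under 116, the signal below which probe sets were filtered out, so their folds are bounds set against 116: Cidec was at least 75.1-fold lower and Fabp5 at least 12.4-fold lower. With both signals above 116, Dgat1 (probe set 104371_at) had 306 against 3379 ± 266, 11.1-fold lower. Plin2 had 861 against 8987 ± 1142, 10.4-fold lower. At the other end, Lpin1 had 2873 on the muscle-rich array and 2936 ± 470 on the other male arrays, and Gpam had 2932 against 3556 ± 253. Lpin1 lay inside the range of the other male arrays. Between these ends were both probe sets of Lpl (3.37-fold and 5.49-fold lower), Cd36 (2.75-fold), Gpd1 (2.49-fold for 92592_at) and Fabp4 (1.64-fold). The second probe sets of Dgat1 and Gpd1 differed less. Dgat1 162316_f_at had 113, under 116, against 254 ± 87, at least 2.19-fold lower. Gpd1 161753_f_at had 225 against 285 ± 81, 1.26-fold lower. The signal on the muscle-rich array was the lowest of all 16 for 9 of the 13 probe sets. How many of all 7453 tested probe sets were lowest on it was not counted, so the 9 are a description only. With 1 array there is no replicate check of these differences, and no test was made.

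**Figure D1:**
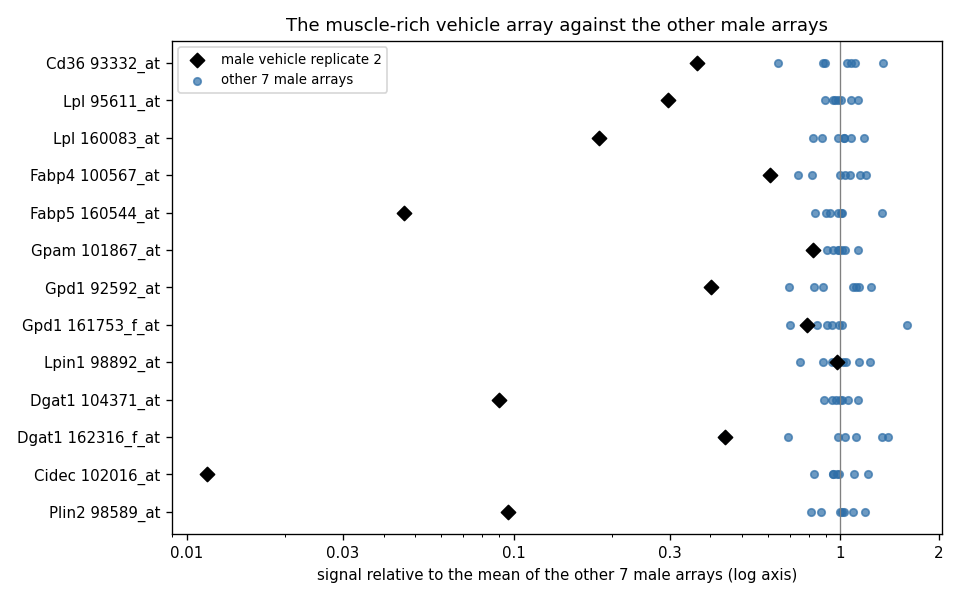
Signal of the 13 tested member probe sets on the muscle-rich array (black diamonds) and on the other 7 male arrays (blue points), each divided by the mean of those 7 arrays, on a log axis. Cidec lies furthest left, at a signal of 100 that is under the filter's 116, and Lpin1 lies among them.

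The members lie on 8 chromosomes of the mouse assembly GRCm38.p6, by the RefSeq gene table. Fabp5 (3:10012585-10016610) and Fabp4 (3:10204342-10208616) lie close together on chromosome 3, and Dgat1 (15:76502012-76512021) and Gpd1 (15:99717587-99725014) are both on chromosome 15. The others are Plin2 (4:86626910-86670217), Cd36 (5:17781690-17888959), Cidec (6:113424634-113435760), Lpl (8:68880555-68906932), Lpin1 (12:16535669-16653903) and Gpam (19:55067635-55127319). RefSeq promoter windows, from 250 bases before an annotated start to 50 bases after it, matched 5 of the 10 genes: Plin2, Cd36, Cidec, Lpin1 and Gpam, with 2 windows each for Cidec and Gpam and 7 in all. Windows for Lpl, Fabp4, Fabp5, Gpd1 and Dgat1 are not shown.

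Both strands of each window were searched for AGAACA, a hexamer of the element that the androgen and glucocorticoid receptors share, and for AGGTCA, a hexamer bound by many other nuclear receptors, among them PPAR gamma, the master regulator of fat cell genes. The inverted pair of the steroid receptor hexamer with 3 bases between, and the direct repeat of the other hexamer with 1 base between, were searched as well. The AGAACA hexamer was in 19.0% of 32851 mouse promoter windows of this length and the AGGTCA hexamer in 16.3%, while the inverted pair was in 0.00913% and the direct repeat in 0.0396%. None of the 7 windows held either of the paired elements. Printed below are 3 windows, all on the minus strand and read 5′ to 3′, with the hexamers, in either direction, in capitals. That of Cidec (chr6:113435711-113436010) is shown because Cidec had the largest difference between the sexes among the members, that of Plin2 (chr4:86670010-86670309) because this droplet coat gene differed between the sexes in the same direction, and that of Lpin1 (chr12:16610917-16611216) because it is the 1 window of the 7 that held an AGAACA hexamer.
Cidec: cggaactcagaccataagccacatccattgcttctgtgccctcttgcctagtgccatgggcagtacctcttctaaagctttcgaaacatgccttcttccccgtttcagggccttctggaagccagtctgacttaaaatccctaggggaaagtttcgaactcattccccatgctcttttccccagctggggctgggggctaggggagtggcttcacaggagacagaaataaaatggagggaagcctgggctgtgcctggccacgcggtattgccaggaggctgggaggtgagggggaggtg
Plin2: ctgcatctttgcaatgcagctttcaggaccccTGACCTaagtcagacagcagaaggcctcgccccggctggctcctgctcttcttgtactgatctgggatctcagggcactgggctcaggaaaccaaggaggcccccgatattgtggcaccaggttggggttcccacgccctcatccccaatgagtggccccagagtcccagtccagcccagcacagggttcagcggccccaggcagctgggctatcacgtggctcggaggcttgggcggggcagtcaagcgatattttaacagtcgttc
Lpin1: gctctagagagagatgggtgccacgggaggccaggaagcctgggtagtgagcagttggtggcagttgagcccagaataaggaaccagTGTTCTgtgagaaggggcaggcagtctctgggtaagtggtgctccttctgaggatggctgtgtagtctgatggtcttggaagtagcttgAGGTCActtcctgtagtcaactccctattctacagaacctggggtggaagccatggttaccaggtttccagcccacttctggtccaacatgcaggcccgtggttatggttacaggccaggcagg
The Cidec window had no hexamer of either kind, and neither had the window at its other start (chr6:113434715-113435014). The Plin2 window had 1 AGGTCA hexamer, on the other strand, and the Lpin1 window had 1 of each kind. The windows of Cd36 (chr5:17835847-17836146) and of 1 start of Gpam (chr19:55099428-55099727) had 1 AGGTCA hexamer each. A match describes these letters only, and bears on no binding of a factor.

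No member changed after DHT by the test across all probe sets. In the mean of the 6 DHT times against vehicle, none of the 13 probe sets passed an adjusted p of 0.05 (limma, Benjamini-Hochberg adjustment over 7453 probe sets), with 16 arrays or with 15. At an unadjusted p under 0.05 there were 0 members with 16 arrays and 2 with 15, Lpin1 and Gpd1. Of all probe sets 5.21% reached it with 16 arrays and 3.11% with 15. At the adjusted threshold 0.0403% of the 7453 probe sets passed with 16 arrays and 0.0537% with 15, all of them higher after DHT. No member passed at any single time either. An unadjusted p under 0.05 was reached by at most 1 member, at 1 h, with 16 arrays and by at most 4, at 24 h, with 15 (limma). Of all probe sets 2.43% reached it at 1 h with 16 arrays and 4.19% at 24 h with 15. The share of all probe sets that passed was 0% at 1 h with 16 and with 15 arrays, 0.0134% at 3 h with both, 0.0403% at 6 h (0.0537% with 15 arrays), 0.0403% at 12 h with both, 0% at 18 h (0.0268% with 15) and 0% at 24 h (0.0134% with 15).

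The sizes of the changes depended on whether the muscle-rich array was in the fit. With all 16 arrays 11 of 13 members were higher after DHT, with a median log2 change of 0.44, against 0.036 over all probe sets. Without it 7 were higher and 6 lower, with a median of 0.010, against 0.0057 over all probe sets. The log2 change of Cidec was 1.67 ± 0.87 (limma's SE, as for all log2 changes below) with 16 arrays and 0.15 ± 0.11 with 15. That of Fabp5 was 1.04 ± 0.60 with 16 arrays and 0.0096 ± 0.16 with 15, and that of Plin2 was 0.97 ± 0.47 and 0.17 ± 0.088. The sign for Dgat1 (104371_at) turned, with 0.67 ± 0.53 for 16 arrays and -0.23 ± 0.16 for 15. The adjusted p was 0.63 to 0.949 for the 13 probe sets with 16 arrays and 0.999 for all 13 with 15 (limma).

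**Figure D2:**
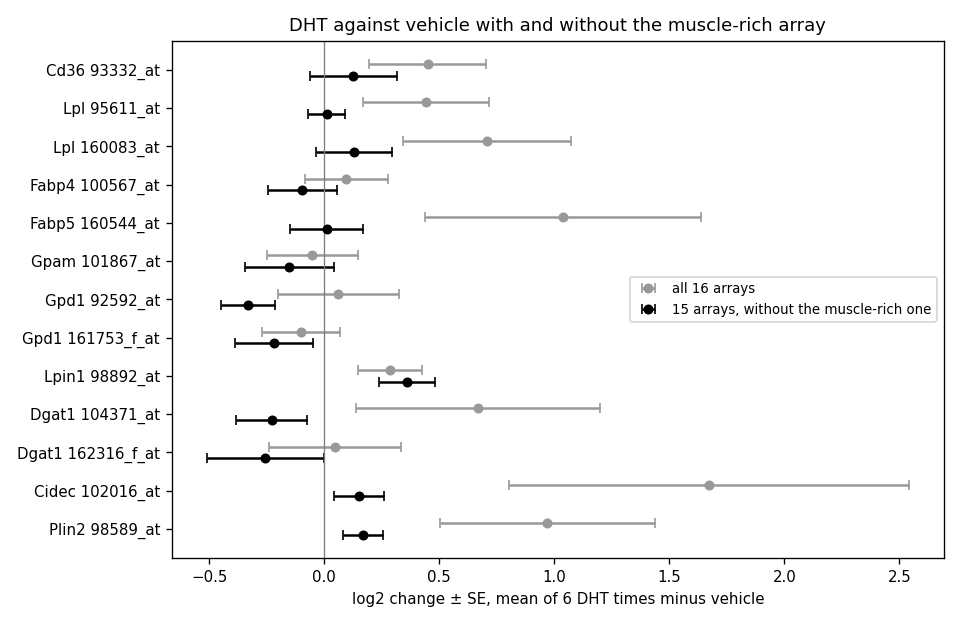
Log2 change ± SE of each member probe set, mean of the 6 DHT times minus vehicle, fitted on all 16 arrays (grey) and on the 15 arrays without the muscle-rich one (black). The grey values for Cidec, Fabp5, Plin2, Dgat1 and Lpl 160083_at are the furthest from 0, and the black values of the same probe sets lie between -0.23 and 0.17.

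Among the uptake genes, Cd36, the fatty acid receptor, had 601 to 1694 after DHT (median 1127, n = 12), against 1131, 655 and 1036 on the vehicle arrays other than the muscle-rich one. The groups overlapped, and the log2 change was 0.45 ± 0.25 with 16 arrays and 0.13 ± 0.19 with 15. Lpl, the lipase, had signals of 13296 to 19356 (median 15541) for probe set 95611_at after DHT, against 16225, 14975 and 15089.8 on the same vehicle arrays. Its log2 change was 0.0099 ± 0.082 with 15 arrays and 0.44 ± 0.27 with 16, and for its other probe set 160083_at 0.13 ± 0.16 and 0.71 ± 0.37. Fabp4, the main fatty acid binding protein of fat cells, had 560 to 1036 after DHT (median 827), against 891, 658 and 970 with vehicle, and Fabp5 had 805 to 1924 (median 1414), against 1304, 1579 and 1161. For each of these genes the vehicle signals lay inside the range of the DHT arrays.

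Of the synthesis genes, Lpin1 and Gpd1 had the largest changes for their error on the 15 arrays, in opposite directions, and neither passed. Lpin1, the phosphatidate phosphatase, had 2590, 3352, 3604, 2982, 2766 and 3053 in males, in order of time from 1 to 24 h after DHT, against 2201 and, on the muscle-rich array, 2873 with vehicle. In females it had 2739, 2914, 2448, 2660.2, 2784 and 2371 after DHT, against 2486 and 1849 with vehicle. All 6 male DHT arrays were above the male vehicle array of fat, while in females 2 of the 6, at 6 and 24 h, were below 1 vehicle array. The log2 change was 0.36 ± 0.12 with 15 arrays (unadjusted p = 0.012, adjusted p = 0.999, limma) and 0.29 ± 0.14 with 16. Its largest change at a single time was at 3 h, 0.50 ± 0.17 with 15 arrays (adjusted p = 1, limma). Gpd1 is described with the time course below, and its mean log2 change was -0.33 ± 0.12 with 15 arrays (adjusted p = 0.999, limma) and 0.061 ± 0.26 with 16. Gpam, the acyltransferase of the opening step, had -0.15 ± 0.19 with 15 arrays and -0.051 ± 0.20 with 16.

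The small difference of Plin2, the droplet coat protein, rested on tight vehicle values and did not pass the test. It had 10678, 7858, 8925, 9243, 9084 and 9833 in males at 1 to 24 h after DHT, against 7286 with vehicle and 861 on the muscle-rich array. In females it had 8079.9, 7561, 7639, 6658, 7659 and 8206 after DHT, against 7366 and 7157 with vehicle. In males all DHT arrays were above the vehicle array of fat. In females the 12 h array was below both vehicle arrays and the others were above both. How often such an order occurs among all probe sets was not counted. The mean log2 change over the DHT times was 0.17 ± 0.088 on 15 arrays (adjusted p = 0.999, limma). The largest change at a single time was 0.32 ± 0.12 at 1 h with 15 arrays (adjusted p = 0.999, limma). Cidec, the droplet enlarging protein, had its largest change at 24 h, 0.51 ± 0.16 with 15 arrays (adjusted p = 0.937, limma) and 2.03 ± 1.30 with 16. At 24 h it had 6591 in females, against 3683 and 4909.6 with vehicle, and 10557 in males, against 8279 with vehicle and 100 on the muscle-rich array. The 24 h arrays were the highest of their sex.

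**Figure D3:**
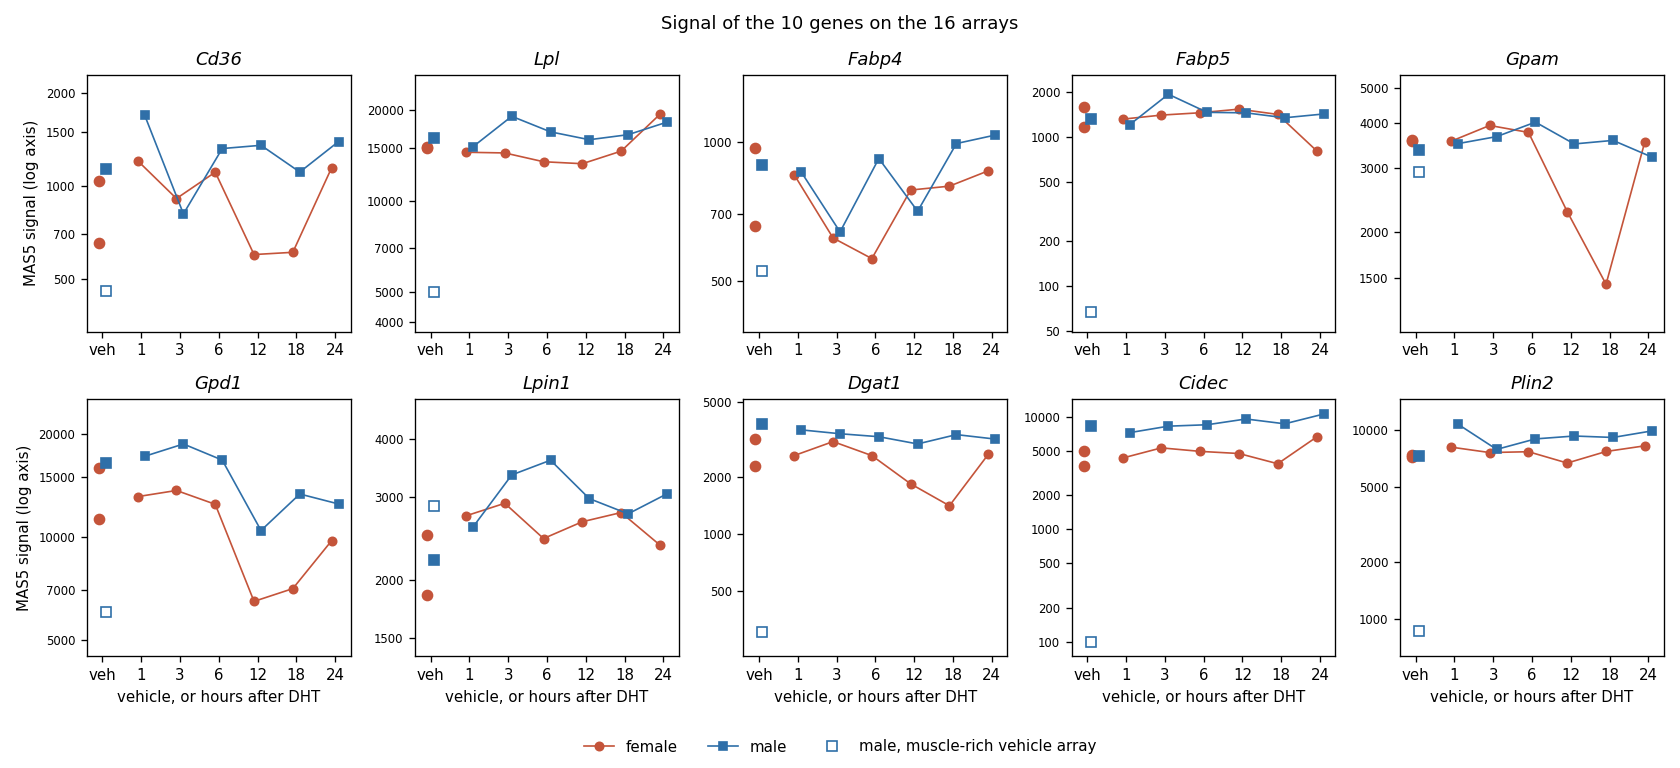
Signal (log axis) of the 10 genes on the 16 arrays, for vehicle (veh) and for 1 to 24 h after DHT, in females (red circles) and males (blue squares), with the muscle-rich male vehicle array as an open square. For genes with 2 tested probe sets the first given in the text is drawn. The lines join single arrays and carry no error. Cidec is lower on every female array than on every male array of fat, and Gpd1, Gpam and Dgat1 dip on the female arrays of 12 and 18 h.

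Gpd1, which supplies glycerol 3-phosphate, was lower late than early after DHT in both sexes. In females the early signals of probe set 92592_at, in order of time, were 13142, 13697 and 12480.4, and the late ones were 6490.4, 7073 and 9766, with 15925 and 11302 on the vehicle arrays. In males it had 17244, 18733 and 16810.2 at the early times and 10461, 13376 and 12507 at the late ones, with 16445 on the vehicle array of fat and 6058 on the muscle-rich array. In each sex all 3 late arrays were below all 3 early ones, a pattern found in 0.55% of the probe sets tested (41 of 7453), and 1 of the 13 member probe sets. The log2 change, late minus early, was -0.66 ± 0.10 with the spread of 15 arrays, with an unadjusted p of 4e-05 and an adjusted p of 0.0596 (limma), so that it did not pass. With the spread of all 16 arrays the same change had an error of 0.26 and an adjusted p of 1. It passed in 3 alternative fits: with early and late as 2 groups without separate times (adjusted p = 0.0399, limma), and on 15 arrays with quantile normalization (-0.72, adjusted p = 0.0357) or with array weights (adjusted p = 0.0459). Late against early, 0% of all probe sets passed with 16 arrays and 0.0268% with 15, and no member passed in either. An unadjusted p under 0.05 was reached by 2 members on 16 arrays and 4 on 15, against 2.62% and 6.94% of all probe sets (limma).

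Against vehicle, which was given 24 h before necropsy, Gpd1 had log2 changes on 15 arrays of -0.014 ± 0.16, 0.075 ± 0.16 and -0.070 ± 0.16 at 1, 3 and 6 h. At the late times they were -0.88 ± 0.16 at 12 h (unadjusted p = 0.000185, adjusted p = 0.155, limma), -0.64 ± 0.16 at 18 h (adjusted p = 0.612) and -0.46 ± 0.16 at 24 h (adjusted p = 0.999). With all 16 arrays, the 12 h value was -0.49 ± 0.40 (adjusted p = 0.937, limma). The other Gpd1 probe set, 161753_f_at, with signals of 193 to 457, had a late minus early change of -0.37 ± 0.15 on 15 arrays (adjusted p = 0.671, limma). Its suffix marks probes shared with other sequences.

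Gpam, Dgat1 and Cd36 were lower on the female arrays of 12 and 18 h than on the other female DHT arrays. On the arrays of 12 and 18 h Gpam had 2281 and 1440.2, against 3552 on the female array of 24 h and 3564 to 3941 at the early times. Dgat1, which adds the last fatty acid, had 1849 and 1416 on these arrays, against 2646 at 24 h and 2609 to 3094 early. Cd36 had 601 and 611, against 1145 at 24 h and 911 to 1207 early. In males Gpam had 3226 to 3585 late and 3512 to 4025 early, and Dgat1 had 3006.5 to 3368 late and 3284 to 3568 early. The log2 changes late against early, over both sexes on 15 arrays, were -0.42 ± 0.17 for Gpam (adjusted p = 0.688, limma), -0.32 ± 0.14 for Dgat1 (adjusted p = 0.705) and -0.22 ± 0.17 for Cd36 (adjusted p = 0.785). Without the female arrays of 12 and 18 h and the muscle-rich array, the Gpd1 change was -0.52 (adjusted p = 0.714, limma). The female 12 h array also carried RNA of exocrine pancreas, with a summed marker signal of 48378, against 862.5 to 1531 on the other female DHT arrays. The female vehicle arrays had 2779.5 and 2910.6, and the male arrays 721 to 1069. The female 18 h array had the highest level of the antisense control probe sets, 8.0 on the log2 scale against 6.13 to 7.65 on the other arrays. No marker of adipocytes or of the other cell types listed passed the test late against early on 15 arrays. Of 67 markers 7 had an unadjusted p under 0.05, against 6.94% of all probe sets (limma). The median log2 change was 0.0083 over 13 adipocyte markers and 0.72 over 3 exocrine pancreas markers. The skeletal muscle markers had negative changes for all 18, with a median of -0.32 and 4 with an unadjusted p under 0.05 (limma). Their summed signal was 21617 to 42587 late and 35612 to 54459.8 early in females, and 42915 to 57521 late and 42189.5 to 73018 early in males, so that the ranges overlapped. The part of these features in the low values was not tested.

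Between the sexes, 4 member probe sets passed, all lower in females: Cidec, Gpd1 (92592_at), Dgat1 (104371_at) and Plin2. This contrast was fitted on the 12 DHT arrays alone, 6 of each sex, with arrays of the same time set against each other, so that no vehicle array enters it. Of all probe sets 12.3% passed (917 of 7453, 538 higher and 379 lower in females), against 4 of the 13 members, and 12 of 13 members were lower in females, with a median log2 difference of -0.20 against 0.010 over all probe sets. The median over all probe sets was thus close to 0.

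Cidec had the largest difference. It had 4292, 5286, 4919.9, 4709, 3820.3 and 6591 in females, in order of time from 1 to 24 h after DHT. In males it had 7218, 8244, 8487, 9550.4, 8651 and 10557 at the same times. All 6 female arrays were below all 6 male arrays, as for 3.58% of the probe sets tested and 1 of the 13 members. The log2 difference, female minus male, was -0.84 ± 0.089 (adjusted p = 0.000274, limma), and it was negative at each of the 6 times, from -1.18 at 18 h to -0.64 at 3 h. The vehicle arrays showed the same order, with 3683 and 4909.6 in females, against 8279 in males and 100 on the muscle-rich array. With vehicle included, all 8 female arrays were below the 7 male arrays of fat, as for 2.54% of probe sets and again 1 of the 13 members.

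Gpd1, with the signals given above, was lower in females at each of the 6 times, and the log2 difference was -0.54 ± 0.086 (adjusted p = 0.00298, limma). Its medians were 11123 in females and 15093 in males, and the ranges overlapped. Dgat1 had 2610.5, 3094, 2609, 1849, 1416 and 2646 in females at 1 to 24 h, against 3568, 3404, 3284, 3006.5, 3368 and 3190.4 in males. The female array of 3 h was above the male array of 12 h and all other female arrays were below all male arrays. The log2 difference was -0.52 ± 0.14 (adjusted p = 0.0348, limma), between -1.24 at 18 h and -0.14 at 3 h. For Plin2 the difference was -0.28 ± 0.075 (adjusted p = 0.0393, limma), between -0.47 at 12 h and -0.055 at 3 h. These 4 probe sets were lower in females at all 6 times, as were 8.75% of all probe sets.

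Cidec and Gpd1 passed in all 21 alternative fits of this contrast, Dgat1 in 10 and Plin2 in 7. These fits are not independent. The 21 count the loss of a time's female array and of its male array separately, although both give the same difference. With 1 array of a time left out, which removes the pair of that time, the difference lay between -0.88 and -0.77 for Cidec and between -0.58 and -0.46 for Gpd1. Dgat1 missed the threshold without the 1, 6, 12 or 18 h array of either sex, with differences of -0.56 to -0.38. Plin2 missed it without the 1, 6, 12, 18 or 24 h array of either sex, with -0.29 to -0.24. On the times 1, 3, 6 and 24 h alone, Cidec had -0.71 (adjusted p = 0.00192, limma) and Gpd1 -0.41 (adjusted p = 0.0145), and Dgat1 had -0.30 (adjusted p = 0.111) and Plin2 -0.24 (adjusted p = 0.149).

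The second probe sets did not follow. Gpd1 161753_f_at had 0.020 ± 0.15 (adjusted p = 0.953, limma) and Dgat1 162316_f_at, with signals of 107 to 355, had -0.13 ± 0.21 (adjusted p = 0.758). Both passed the filter on low signal, and both carry a suffix for shared probes. The differences of Gpd1 and Dgat1 between the sexes thus rest on 1 of 2 probe sets each. Values of different probe sets cannot be set against each other as levels.

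Among the uptake genes no member passed between the sexes. Cd36 had 601 to 1207 in females (median 1010.0), against 813 to 1694 in males (median 1338), and was lower in females at 5 of 6 times. Its log2 difference was -0.47 ± 0.16 (adjusted p = 0.0845, limma). It passed with the antisense control level as a covariate (-0.58) and without the 3 h array of either sex (-0.60), the time at which the female array was higher, with 911 against 813 in the male. Lpl had -0.19 ± 0.077 for 95611_at (adjusted p = 0.142, limma) and -0.057 ± 0.15 for 160083_at. Fabp4 had -0.20 ± 0.12 (adjusted p = 0.362, limma) and Fabp5 -0.17 ± 0.14 (adjusted p = 0.499). Of the synthesis genes, Gpam had -0.29 ± 0.18 (adjusted p = 0.341, limma), with 2281 and 1440.2 in females at 12 and 18 h, against 3505 and 3585 in males. At the other 4 times its female minus male difference was between -0.093 and 0.14. Lpin1 had -0.20 ± 0.10 (adjusted p = 0.244, limma).

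**Figure D4:**
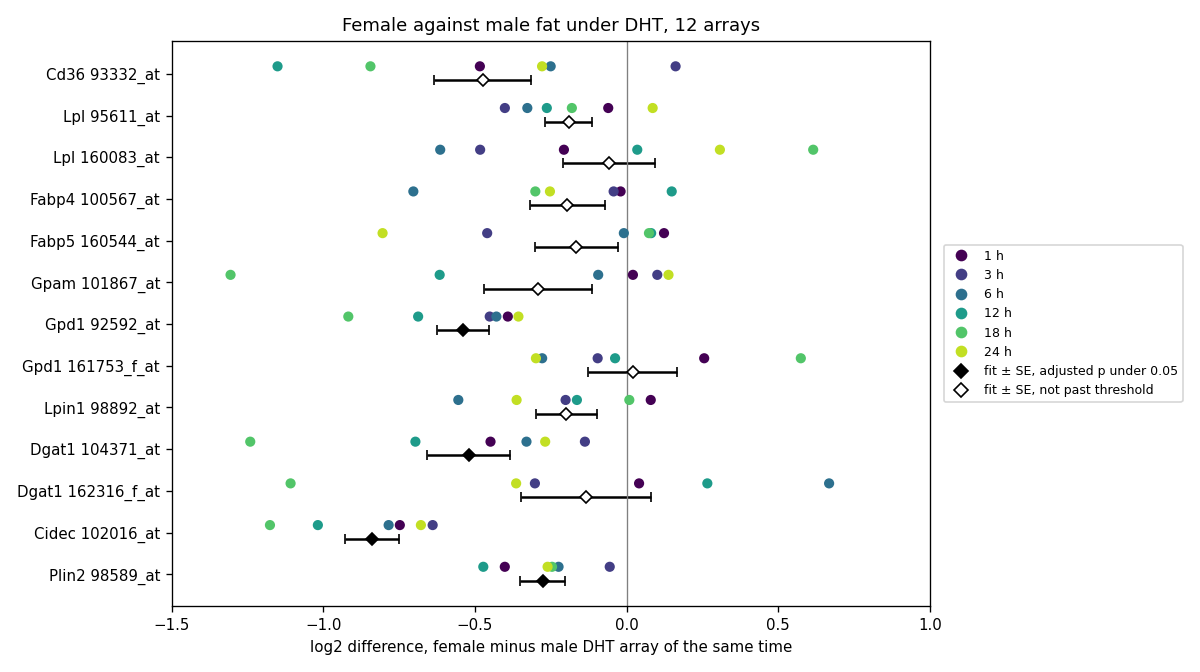
Log2 difference, female minus male, of each member probe set at the 6 DHT times (coloured points, 1 female and 1 male array each) and as fitted over the 12 DHT arrays (diamonds ± SE, filled where the adjusted p was under 0.05). All 6 points lie left of 0 for Gpd1 92592_at, Dgat1 104371_at, Cidec and Plin2.

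With the vehicle arrays in the comparison, the result turned on the muscle-rich array. On all 16 arrays 0 of the 13 members passed between the sexes, where 5.58% of all probe sets did (limma). An unadjusted p under 0.05 was reached by 0 members, against 19.4% of all probe sets. On 15 arrays 4 members passed, where 15.6% of all did: Cidec (-0.86 ± 0.088, adjusted p = 5.19e-05, limma), Gpd1 (-0.49 ± 0.094, adjusted p = 0.00383), Dgat1 (-0.52 ± 0.12, adjusted p = 0.0151) and Plin2 (-0.23 ± 0.071, adjusted p = 0.0491). These are the same 4 as on the DHT arrays, which both fits share. Whether the response to DHT itself differed between the sexes was tested as an interaction. No member passed with 16 arrays (0% of all probe sets) or with 15 (0.0134%). An unadjusted p under 0.05 was reached by 1 member with 16 and 0 with 15, against 6.25% and 2.83% of all probe sets (limma). On 15 arrays the difference of the responses was 0.12 ± 0.24 for Cidec, -0.25 ± 0.24 for Gpd1, -0.27 ± 0.175 for Plin2 and -0.022 ± 0.34 for Dgat1.

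Markers of cell types also differed between the sexes on the same 12 arrays, where 12.3% of all 7453 probe sets passed (538 higher and 379 lower in females). Of 13 adipocyte markers 8 fell in females and 0 rose, with a median log2 difference of -0.32, and the summed signal of the list was 132326 to 181732 in females, against 160897 to 222108 in males. Lipe, the hormone-sensitive lipase, had -0.80 ± 0.082 (adjusted p = 0.000236, limma) and Pnpla2, the opening triglyceride lipase, -0.71 ± 0.064 (adjusted p = 8.61e-05), while Adipoq, the adiponectin gene, had -0.19 ± 0.089 (adjusted p = 0.218). Of 10 macrophage markers 6 rose and 0 fell, with sums of 21345.5 to 27919 in females, against 13352.5 to 17451.5 in males. Of 6 smooth muscle markers 5 rose, and of 4 brown adipocyte markers 3 fell, among them Ucp1, the uncoupling protein (-2.42 ± 0.50, adjusted p = 0.0116, limma). Of 18 skeletal muscle markers 1 rose and 2 fell, with a median of -0.36. No defining adipocyte marker was at 0. The part of cell composition in the differences of the members was not tested.

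The wider pathways were read from 3 gene lists with 72 genes, of which 43 were tested with 1 probe set each. Of all 7453 probe sets 12.3% passed between the sexes on the DHT arrays, 379 lower and 538 higher in females. Of 15 tested genes of fatty acid uptake and binding, 4 fell in females and 0 rose on the DHT arrays, with a median log2 difference of -0.20. These were Slc27a1, a fatty acid transporter (-0.61 ± 0.14, adjusted p = 0.0218, limma), Cavin1, which forms caveolae with caveolin (-0.60 ± 0.17, adjusted p = 0.0461), Dbi, the acyl-CoA binding protein (-0.40 ± 0.081, adjusted p = 0.0103), and Angptl4, an inhibitor of Lpl (-0.39 ± 0.091, adjusted p = 0.021). None of the 4 is among the 10 genes. Of 15 tested genes of glycerol 3-phosphate supply and triglyceride synthesis, 5 fell and 1 rose, with a median of -0.26. Beside Gpd1 and Dgat1 those that fell were Aqp7, Pck1 and Agpat3. Aqp7, the glycerol channel of fat cells, had -0.76 ± 0.13 (adjusted p = 0.00384, limma). Pck1, an enzyme of glycerol 3-phosphate supply, had -0.55 ± 0.10 (adjusted p = 0.00609, limma). The acyltransferase Agpat3 had -0.52 ± 0.14 (adjusted p = 0.0399, limma). Plpp1, a lipid phosphate phosphatase, rose (0.65 ± 0.12, adjusted p = 0.0079, limma).

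Of 13 tested genes of the lipid droplet coat and droplet growth, 6 fell in females and 0 rose, with a median of -0.28. Plin4, another droplet coat protein, had 5455 to 7121 in females (median 6614), against 9518.0 to 13542 in males (median 12708), and a log2 difference of -0.93 ± 0.068 (adjusted p = 2.22e-05, limma). Cidea, a relative of Cidec that is also a brown fat marker, had 328 to 718 in females, against 1076 to 1806 in males (-1.49 ± 0.19, adjusted p = 0.000945, limma). Seipin (Bscl2), which helps droplets form, had -0.45 ± 0.081 (adjusted p = 0.00553, limma) and G0s2, an inhibitor of Pnpla2, -0.43 ± 0.10 (adjusted p = 0.0237). Cidec and Plin2 are the other 2. Over all probe sets the median was 0.010 and 12.3% passed (379 of 7453 lower in females). The lower adipocyte markers in females are given above.

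**Figure D5:**
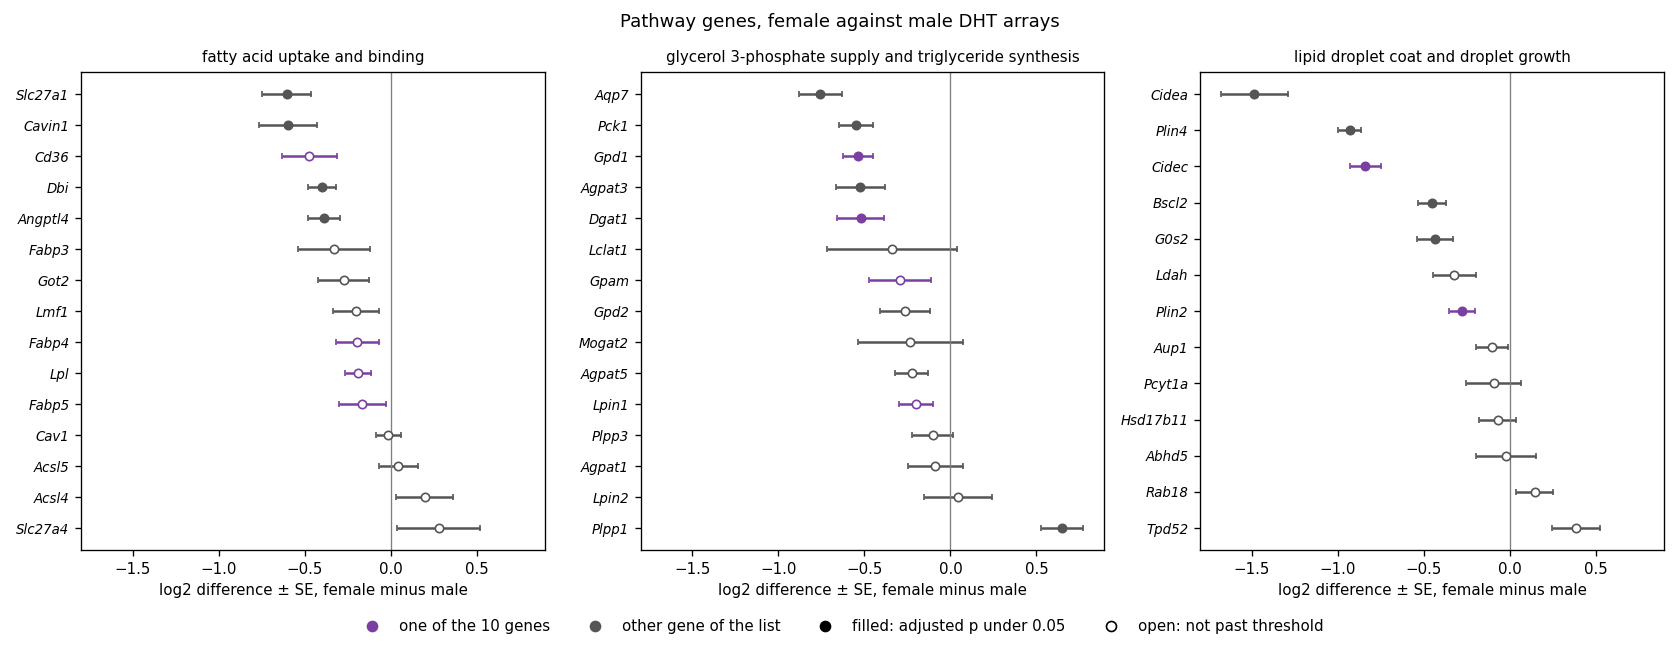
Log2 difference ± SE, female minus male on the 12 DHT arrays, of the 43 tested genes of the 3 lists, with the 10 described genes in purple and filled points where the adjusted p was under 0.05. All filled points but that of Plpp1 lie left of 0.

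After DHT none of the 43 genes passed, although 4 with 16 arrays and 5 with 15 had an unadjusted p under 0.05, against 5.21% and 3.11% of all probe sets. None passed late against early, where 1 and 4 had one, against 2.62% and 6.94% of all probe sets (limma). The medians of the lists against vehicle were 0.38, 0.061 and 0.58 with 16 arrays for uptake, synthesis and droplets, and 0.0096, -0.038 and 0.048 with 15. Plin4 had the smallest p of the droplet genes, with 0.30 ± 0.082 on 15 arrays (adjusted p = 0.868, limma) and 0.92 ± 0.37 on 16. Among the uptake genes Cav1, the caveolin of fat cells, had 0.215 ± 0.088 on 15 arrays and 0.47 ± 0.19 on 16. Slc27a1 had -0.37 ± 0.15 on 15 arrays and 0.31 ± 0.41 on 16. Its sign thus turned with the muscle-rich array. On 16 arrays Angptl4 had 1.07 ± 0.50, Pck1 0.91 ± 0.48, Agpat1, an acyltransferase of triglyceride synthesis, -0.66 ± 0.29 and Pcyt1a, an enzyme of phosphatidylcholine synthesis, -0.69 ± 0.28. All had an adjusted p of 0.63 (limma).

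The genes whose log2 signal ran most like that of a member over the 15 arrays other than the muscle-rich one were found by Pearson correlation, given as a description, since these arrays share the difference between the sexes. For Cidec they were Retsat (r = 0.958, Spearman's rho = 0.904), Slc1a5 (0.953, rho = 0.957) and Plin4 (0.944, rho = 0.893). For Dgat1 they were Samm50 (0.942, rho = 0.893), Acaa1b (0.938, rho = 0.829) and Apmap (0.938, rho = 0.918), and for Cd36 the nearest was Sucla2 (0.938, rho = 0.907). For Gpd1 they were Dctpp1 (0.878), Dock9 (0.874) and Fkbp4 (0.872). Gpam had Rnf10 (0.969, rho = 0.704), Slc39a3 (0.95, rho = 0.475) and Psmd13 (0.878, rho = 0.204), with values of rho far below those of r. The nearest genes were Gps1 for Lpl (0.88), Ceacam1 for Fabp4 (0.804), Stom for Fabp5 (0.884), Nfs1 for Lpin1 (0.794) and Amotl2 for Plin2 (0.853).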

How the data were processed

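Total RNA of retroperitoneal fat was read on 16 Affymetrix arrays, 8 from females and 8 from males. The deposited intensity values are linear MAS5 signals, per the submitters' processing notes, with 1 value for each probe set. Which MAS5 version made them is not given in the labels. The mean of the deposited signals, leaving out the lowest and highest 2%, is the same on all arrays, so no further normalization was applied. An array's precision is limited by the number of arrays, and no depth applies. Median signals were 184 to 220, and the ratio of the 3′ to the 5′ Gapdh control was 0.801 to 0.957.

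Of 12488 probe sets 66 were controls. The platform annotation listed 11251, of which 10855 had 1 gene symbol and 396 several, and 1237 were not listed and stayed unnamed. A pseudocount of 16 was added before taking log2 (alternatives 1 and 64), and probe sets under the 40th percentile of the mean log2 signal (a signal of 116) were left out. limma 3.58.1 in R 4.3.3 fitted sex and time together (8 residual degrees of freedom), the 12 DHT arrays alone for the sexes (5) and the interaction (7), with an intensity trend in the prior variance. Benjamini-Hochberg adjustment ran over all 7453 probe sets, with a threshold of 0.05, and the code was tested on simulated data. Residual degrees of freedom treat DHT times as acting alike in both sexes.

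The members, lists and tests were chosen with earlier results of these data known. Besides the members, genes of a list were named if they passed in a contrast (the 5 with the largest change where more did) or had 1 of the 2 smallest p-values of their list for DHT against vehicle or between the sexes, and likeness was given for up to 3 genes per member. Where a gene of a list had several probe sets, the brightest was used. Sequences and loci are from RefSeq, GRCm38.p6. Alternatives were quantile normalization, array weights, antisense controls as a covariate, other pseudocounts, no filter, 1 probe set per gene, no trend, no separate times and leaving out each array.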

Additional observations from a re-analysis of the deposited data

Results flagged for a closer look

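In 6 of 39 groups of member signals, 1 array lay far from the other arrays of its group, by Dixon's test at its 95% level, and chance marks about 1 in 20 groups. The female array of 24 h after DHT was marked for 2 uptake genes, with the highest Lpl signal (19356.1 for probe set 95611_at) and the lowest Fabp5 signal (805.3) of the 6 female DHT arrays. The male array of 3 h had the highest Fabp5 signal (1923.8) and the highest Gpd1 signal of probe set 161753_f_at (456.7) of the 6 male DHT arrays. The muscle-rich array had the lowest signal of the 4 vehicle arrays for Lpl (5013.7 for 95611_at) and for Plin2 (860.9). The other male vehicle array had 16225 for Lpl and 7286 for Plin2. Neither of the marked DHT arrays has a replicate of its own sex and time.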

How the results depend on the processing

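Fits that combined the loss of the muscle-rich array with another choice, those on 1, 3, 6 and 24 h alone, and those without the female 12 and 18 h arrays were chosen after seeing the data. For DHT against vehicle 0 members passed in every alternative run, and of all probe sets 9 passed with array weights, 0 without separate times, 11 with array weights on 15 arrays, and 1 to 4 with 1 array left out, against 3 as reported. The Dgat1 change (104371_at, 0.67) reversed to -0.22 (quantile normalization), -0.32 (control covariate) and -0.20 (array weights), all on 15 arrays, and with 1 array left out lay between -0.23, without the muscle-rich array, and 1.07.

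Late against early, 1 member (Gpd1) passed without separate times, and with quantile normalization or array weights on 15 arrays, where 4 probe sets passed in each of the 3 fits. With the control covariate on 15 arrays 1 probe set passed, and with 1 array left out 0 to 2, the 2 without the muscle-rich array. Between the sexes on all arrays, 4 members and 1445 probe sets passed with array weights. On 15 arrays these were 4 and 1089 with quantile normalization, 5 and 1417 with the covariate and 6 and 1487 with array weights, and 2 and 739 without the female 12 and 18 h arrays as well. With 1 array left out 0 to 4 members and 262 to 1160 probe sets passed, the highest without the muscle-rich array and the lowest, 262 to 277, without the 6 or 12 h array of either sex.

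On the DHT arrays, 2 members passed with quantile normalization, with no trend and on 1, 3, 6 and 24 h alone. With 1 array left out 2 to 5 passed (2 without the 1, 6, 12 or 18 h array of either sex, 5 without the 3 h array), and 560 to 729 probe sets, the lowest without the female 6 h array. For the sex difference of the response, 1 probe set passed with quantile normalization and 1 with the covariate on 15 arrays. With 1 array left out 0 to 8 members and 0 to 2351 probe sets passed. The 8 and 2351 came without the other male vehicle array, where the muscle-rich one is the sole male vehicle. Of 1018 recomputed log2 changes of single members, 902 kept their direction and side of the threshold, 31 crossed the threshold, and 81 changed sign where the value lay within 1 SE of 0 in at least 1 of the fits compared. The causes were not tested. The labels number no replicates, so no replicate block was fitted, and the contrast on the DHT arrays pairs the sexes by time.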
